A study of Mus musculus with 24 samples.

Results

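The regions described here are broad domains of histone H3 lysine 27 acetylation (H3K27ac) in skeletal muscle fibers of weekly prednisone–treated female mice. A broad domain was a peak on chromosomes 1 to 19 of the female day 6 list whose end minus start was 5000 bp or more. The domains were thus chosen by their measured length in that list, and numbered 3934 of its 121551 autosomal peaks (3.24%). Their length, fold over input and tags in the female day 6 list are therefore descriptions of what was chosen, and their cover in the other 7 lists was not used to choose them.

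H3K27ac chromatin immunoprecipitation sequencing (ChIP-Seq) was performed on myofibers isolated with collagenase II from the quadriceps of male and female mice, given as C57BL/6 in the labels and as C57BL/6J in the methods of the study. Mice were 10 weeks old at the start and received vehicle (DMSO in PBS) or prednisone, a synthetic glucocorticoid, as 5 weekly injections of 1 mg/kg. The 8 groups were vehicle-treated females and males (the day of collection is not given in the sources used here) and weekly prednisone–treated females and males 4, 6 or 8 days after the fifth injection. Each group had 2 H3K27ac libraries and 1 input library, and 1 peak list was used per group.

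H3K27ac is placed on nucleosomes by the acetyltransferases CBP and p300 at active promoters and enhancers. Most acetylated sites span a few nucleosomes, but at some genes the mark runs on over the promoter, the first introns and nearby enhancers, and such stretches are known to lie at strongly transcribed genes and at genes that define a cell type. In muscle these include genes of the contractile apparatus and of the MyoD and MEF2 transcription factor families. Glucocorticoids act through the glucocorticoid receptor, a nuclear receptor that binds DNA and recruits the same coactivators.

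The lists differed in depth and size. Depth ranged from 7.52 M tags (male day 4) to 50.55 M tags (male day 6) and was 30.62 M tags for female day 6. Autosomal peaks numbered 17339 (male day 4) to 121551 (female day 6), and tags in autosomal peaks made up 5.33% (male day 6) to 46.8% (female day 6) of a list's tags. With 1 list per group there is no replicate check, so groups were set side by side without a test. Depth, the number of peaks and the group cannot be told apart, and in bulk muscle fewer cells of a type cannot be told apart from less mark per cell.

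Sequences of 6 domains are shown first, because the domains differ in the base composition of the promoters they hold. The 250 bases before the start of transcription are given 5′ to 3′ on the gene's strand (RefSeq, GRCm38.p6), with CpG dinucleotides in capitals. Mef2d (chr3:88142122-88142371, plus strand), Fosl2 (chr5:32136222-32136471, plus strand) and Junb (chr8:84978749-84978998, minus strand) lay in domains found in all lists. Acta1 (chr8:123894776-123895025, minus strand), Ckm (chr7:19410844-19411093, plus strand) and Pygm (chr19:6384158-6384407, plus strand) are muscle-restricted genes in domains, and Acta1 was chosen after its values were seen.
Mef2d: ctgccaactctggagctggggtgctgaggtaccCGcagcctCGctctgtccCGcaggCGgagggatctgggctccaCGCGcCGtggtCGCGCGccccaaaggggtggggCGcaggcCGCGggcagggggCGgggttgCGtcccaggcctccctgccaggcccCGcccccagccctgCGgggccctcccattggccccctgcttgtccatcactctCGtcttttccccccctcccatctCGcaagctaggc
Fosl2: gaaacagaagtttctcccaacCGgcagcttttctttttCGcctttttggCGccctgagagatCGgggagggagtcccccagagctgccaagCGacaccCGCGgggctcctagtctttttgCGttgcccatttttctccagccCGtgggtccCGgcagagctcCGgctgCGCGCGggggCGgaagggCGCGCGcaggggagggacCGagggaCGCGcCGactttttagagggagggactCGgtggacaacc
Junb: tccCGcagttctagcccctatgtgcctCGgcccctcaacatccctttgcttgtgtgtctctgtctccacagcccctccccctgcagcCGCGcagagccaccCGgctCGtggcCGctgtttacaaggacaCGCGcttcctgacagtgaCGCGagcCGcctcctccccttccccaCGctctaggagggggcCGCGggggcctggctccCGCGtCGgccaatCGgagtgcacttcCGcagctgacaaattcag
Acta1: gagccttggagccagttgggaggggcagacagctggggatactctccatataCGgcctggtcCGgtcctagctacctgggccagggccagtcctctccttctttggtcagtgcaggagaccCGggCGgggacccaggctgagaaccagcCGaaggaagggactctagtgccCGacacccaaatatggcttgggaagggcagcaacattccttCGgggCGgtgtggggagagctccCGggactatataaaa
Ckm: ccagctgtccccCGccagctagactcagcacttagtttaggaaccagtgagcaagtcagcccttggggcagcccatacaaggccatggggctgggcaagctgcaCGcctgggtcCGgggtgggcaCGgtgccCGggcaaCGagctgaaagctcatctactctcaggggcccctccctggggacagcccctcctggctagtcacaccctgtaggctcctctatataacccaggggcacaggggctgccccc
Pygm: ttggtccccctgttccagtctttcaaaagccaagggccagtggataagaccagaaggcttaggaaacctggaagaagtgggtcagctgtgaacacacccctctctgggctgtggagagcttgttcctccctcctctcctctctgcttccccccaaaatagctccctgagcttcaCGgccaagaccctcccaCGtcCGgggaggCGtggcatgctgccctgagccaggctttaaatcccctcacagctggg

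The first 3 windows held 19 (Mef2d), 23 (Fosl2) and 20 (Junb) CpGs, and the muscle-restricted genes held 9 (Acta1), 6 (Ckm) and 4 (Pygm). Over all 2636 annotated promoters with the start in a domain the median was 13 CpGs in 250 bases, beside 6 over all 31396 autosomal promoters. The sequence CAGCTG, an E box of the kind that MyoD binds, occurred at 1 place in the windows of Acta1, Ckm and Junb and at 2 places in Pygm. It was found on either strand in 15.4% of promoters with the start in a domain and in 13.0% of all autosomal promoters. No promoter window of Tnnt3 was used.

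The next 3 stretches with a match to the MEF2 consensus are shown because they lie in the longest domain and in the longest domain found in all lists, the latter over the gene of a MEF2 factor. Each is 100 bases of the plus strand (GRCm38.p6) with the match in capitals. The match in the Capzb domain (chr4:139270827-139270926) was covered by 1 other list, female day 8. Both matches in the Mef2d domain (chr3:88140748-88140847 and chr3:88150177-88150276) were covered by all 7 other lists.
Capzb: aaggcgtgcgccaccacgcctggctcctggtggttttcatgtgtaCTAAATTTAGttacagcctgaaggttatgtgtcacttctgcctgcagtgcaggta
Mef2d, match 1: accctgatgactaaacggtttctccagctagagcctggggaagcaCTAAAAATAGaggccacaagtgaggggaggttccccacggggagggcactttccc
Mef2d, match 2: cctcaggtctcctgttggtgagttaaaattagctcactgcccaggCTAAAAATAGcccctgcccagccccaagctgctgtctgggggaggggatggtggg

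The domains had a median length of 7.10 kb (25th to 75th percentile, 5.81 to 9.88 kb) and reached 63.85 kb. Of the 3934 domains, 964 were at least 10 kb long, 179 at least 20 kb and 43 at least 30 kb. Together they spanned 35.3 Mb, or 1.43% of the autosomes and 22.4% of the bases in autosomal peaks of the list, and held 29.5% of the tags in those peaks. Median fold over input was 8.76 in the domains and 4.95 in the other peaks, and tags per kb (scaled to 10 M) were 32.6 and 16.98. At the limit, 4 domains were exactly 5000 bp long, among them those in Dst (a cytolinker of the plakin family) and Cacng1 (a calcium channel subunit), and the nearest shorter peaks were 4999 bp (outside genes, chr11:51803797-51808796) and 4998 bp (over Acsf2 and Chad).

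Peaks of this length were far fewer in most other lists. Autosomal peaks of 5000 bp or more numbered 45 in female vehicle, 1063 in female day 4, 2689 in female day 8, 242 in male vehicle, 15 in male day 4, 105 in male day 6 and 51 in male day 8. The 2 lists with over 1000 were those of female day 4 and female day 8. Of these long peaks, 78.3% (female day 4) and 74.2% (female day 8) touched a domain, and the share in the other lists was 65.7% (male day 6) to 100% (male day 4). The same share over all peaks of those lists was not worked out. A long peak touches a region more readily, so these shares are no measure of agreement between lists.

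**Figure D1:**
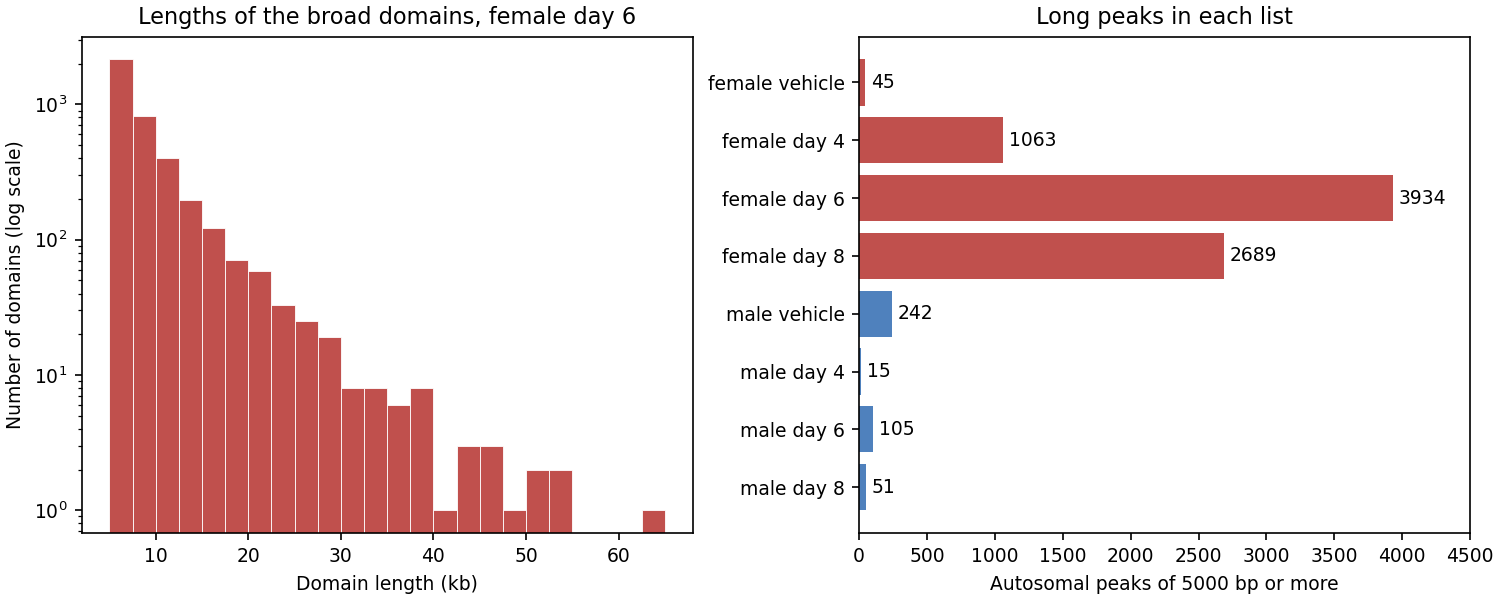
Left, number of broad domains (log scale) by length in bins of 2.5 kb. Right, autosomal peaks of 5000 bp or more in each of the 8 lists, with 3934 in female day 6, 2689 in female day 8 and at most 242 in every male list.

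Where the domains lay in the genome was described next. A protein-coding transcription start lay in 1738 domains (44.2%, Wilson 95% interval 42.6% to 45.7%), and 10% of all autosomal peaks of the list held one. The start belonged to 1 gene in 1447 domains, to 2 genes in 253 and to 3 or more in 38, with at most 5. Another 1819 domains (46.2%) overlapped a gene without its start, and 377 (9.58%) overlapped no protein-coding gene and lay a median of 30.004 kb from the nearest start. The share with a start was 33.9% among domains of 5 to 6 kb and 72.1% among those of 20 kb or more. Longer domains have more room for a start, and no length-matched comparison was made.

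By gene, 2025 of 20021 autosomal protein-coding genes (10.1%) had a start in a domain, and 511 genes lay wholly inside one. In the 1447 domains with a start of 1 gene, a median of 2.08 kb lay upstream of the start and 5.35 kb downstream. The downstream side was the longer in 78.0% of them (75.75% to 80.01%), beside 72.7% (71.8% to 73.6%) of the other peaks with 1 such gene. Introns made up 68.4% of domain bases, exons 12.4% and sequence outside genes 19.2%, whereas the other peaks had 58.7% in introns and 30.8% outside genes. Domains numbered 443 on chromosome 11 (3.63 per Mb) and 58 on chromosome 13 (0.482 per Mb), the highest and the lowest density per Mb of the 19 autosomes. Gene density also differed, with 12.97 and 6.59 genes per Mb. Per 100 genes chromosome 15 was highest (31.7 domains), with 28.0 on chromosome 11 and 7.30 on chromosome 13.

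In base composition the domains stood between the other peaks and their own surroundings in some measures. GC was 52.4%, with 19.1 CpGs per kb and 15.7% of bases in repeats, whereas windows of the same length on both sides had 49.2% GC, 14.4 CpGs per kb and 24.9% in repeats. The other peaks had 51.7% GC, 20.7 CpGs per kb and 15.3% in repeats. Motif density on both strands differed little. CAGCTG occurred 0.803 times per kb in domains, 0.665 in flanking windows and 0.817 in the other peaks, and MEF2 consensus matches 0.0156, 0.0134 and 0.0155 times. ACANNNTGT, the core of a glucocorticoid receptor site, occurred 0.294, 0.320 and 0.303 times per kb, and AAGGTCA, an estrogen-related receptor site, 0.230, 0.222 and 0.215 times. At least 1 MEF2 match was in 12.5% of domains and 10.96% of flanking windows of the same length.

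The cover of the domains by the other lists followed. Peaks of female day 8 covered 75.2% of domain bases, female day 4 47.8%, male vehicle 38.2%, male day 6 14.4%, male day 8 13.9%, female vehicle 13.0% and male day 4 10.8%. The other peaks of the female day 6 list came in the same order of lists, from 41.1% (female day 8) to 4.58% (male day 4). In every list a larger share of domain bases than of other peak bases was covered. Female vehicle stood with the treated male lists, below male vehicle.

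Counted by region, 3278 domains (83.3%, 82.1% to 84.5%) were at least 50% covered by female day 8, against 31.8% of all autosomal peaks of the list. Female day 4 covered at least 50% of 1685 domains (42.8%, 41.3% to 44.4%; background 16.4%), and male vehicle of 986 (25.1%, 23.7% to 26.4%; background 13.8%). Male day 6 did so for 219 (5.57%; background 3.88%). The counts of female vehicle (123, 3.13%; background 2.73%), male day 8 (114, 2.90%; background 2.67%) and male day 4 (48, 1.22%; background 1.60%) were near the background and are no result about the domains. With every list held to its 17339 autosomal peaks of highest score, 1176 domains were left and the shares were 36.1% in female day 8, 21.2% in female day 4 and 8.08% in male vehicle. The order of these 3 held at lower values. Male day 6 then had 6.04%, male day 8 3.23%, female vehicle 2.98% and male day 4 1.53%. Male vehicle thus stood much nearer to male day 6 than with the full lists.

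Far more domains were touched by at least 1 bp of a peak. The share was 61.2% in female vehicle (10.5% of all autosomal peaks), 95.04% in female day 4 (27.7%) and 99.8% in female day 8 (42.2%). In males it was 96.1% in vehicle (30% of all autosomal peaks), 59.8% at day 4 (8.22%), 60.3% at day 6 (11.5%) and 62.6% at day 8 (9.32%). A domain is longer than most other peaks and so is touched more readily, and no length-matched comparison was made.

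**Figure D2:**
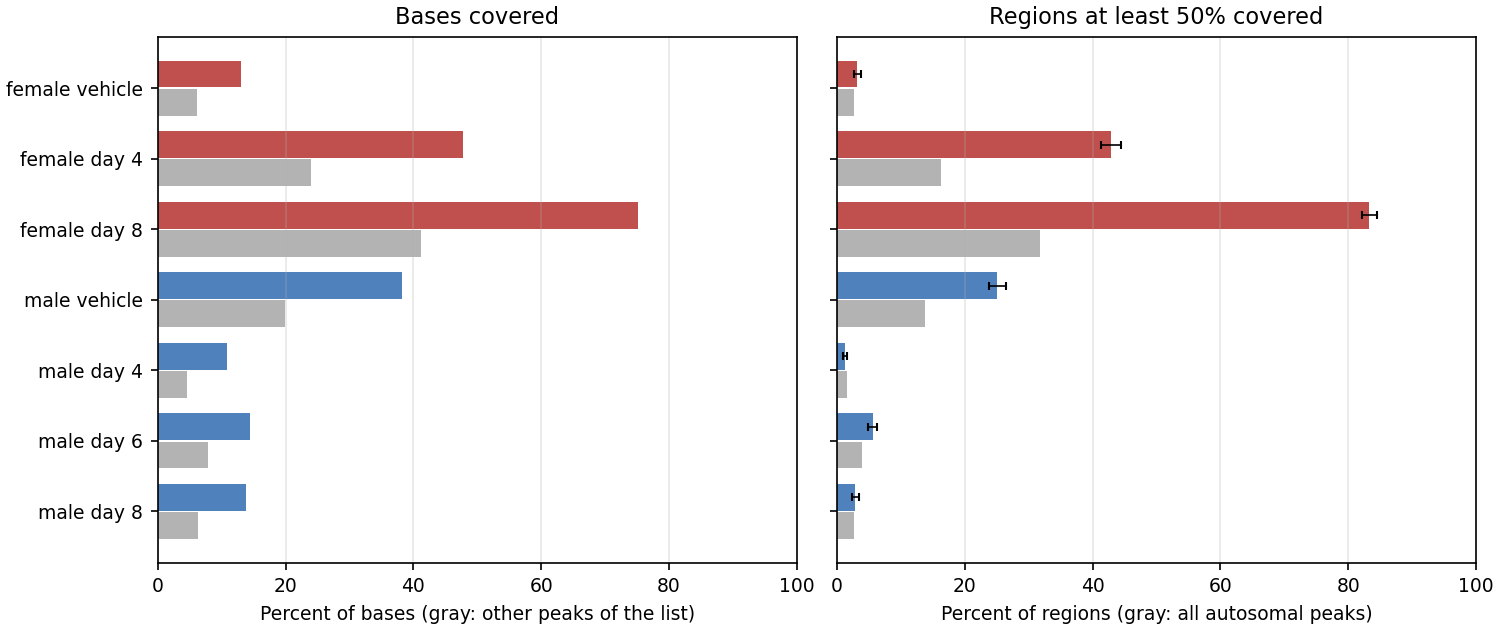
Left, percent of bases covered by peaks of each other list, for broad domains (red, female lists; blue, male lists) and for the other peaks of the female day 6 list (gray). Right, percent of domains at least 50% covered, with Wilson 95% intervals, and of all autosomal peaks (gray); domains exceeded the gray bars most in female day 8, female day 4 and male vehicle.

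Many domains were covered in several pieces, and 1623 were met by a single peak of female day 8 and 1386 by a single peak of female day 4. The median longest unbroken stretch was 4670.5 bp in female day 8, 2501 bp in female day 4, 1676.5 bp in male vehicle and 765 to 1100 bp in the other 4 lists, over the domains each list touched. Male vehicle had 3 or more separate peaks in 1561 domains (39.7%), female day 4 in 1057 (26.9%) and female day 8 in 890 (22.6%). Male vehicle thus had more pieces per domain than female day 8 while covering fewer bases.

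List by list, 637 domains (16.2%) were at least 50% covered by no other list, beside 59.7% of all autosomal peaks of female day 6. Female day 8 alone did so for 1466 (37.3%, all peaks 15.1%). Female day 4 and day 8 together, and no others, covered 764 (19.4%, all peaks 5.54%), and these 2 with male vehicle 605 (15.4%, all peaks 2.87%). The share was thus lower than over all peaks for no list and higher for these 3 combinations. Female day 4 without female day 8 did so for 9 domains (0.229%, all peaks 2.86%), and female day 8 without female day 4 for 1602 (40.7%, all peaks 18.3%). Male vehicle without female vehicle did so for 885 domains (22.5%, 21.2% to 23.8%, all peaks 12.3%), and female vehicle without male vehicle for 22 (0.559%, 0.370% to 0.845%, all peaks 1.24%). The male vehicle list held 87199 autosomal peaks and the female vehicle list 37614, and the part of this difference in the counts was not tested.

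Cover was uneven along a domain. In domains with a start of 1 gene, the first 0.5 kb downstream of the start had the highest cover in 6 of the 7 lists, at 95.7% (female day 8), 81.5% (female day 4), 70.4% (male vehicle), 53.8% (male day 8), 43.3% (male day 4) and 39.4% (male day 6). Female vehicle had 29.4% there and 31.0% in the next 0.5 kb. From 3 to 3.5 kb downstream the same lists had 75.5%, 47.1%, 37.6%, 12.1%, 9.24% and 12.4%, with 12.4% in female vehicle. In every list the share covered was thus highest close to the start. In domains without a start, each split into 10 equal pieces, cover was highest in the middle pieces and lowest in the outer ones (78.4% and 56.2% in female day 8, 14.9% and 5.91% in male day 6).

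**Figure D3:**
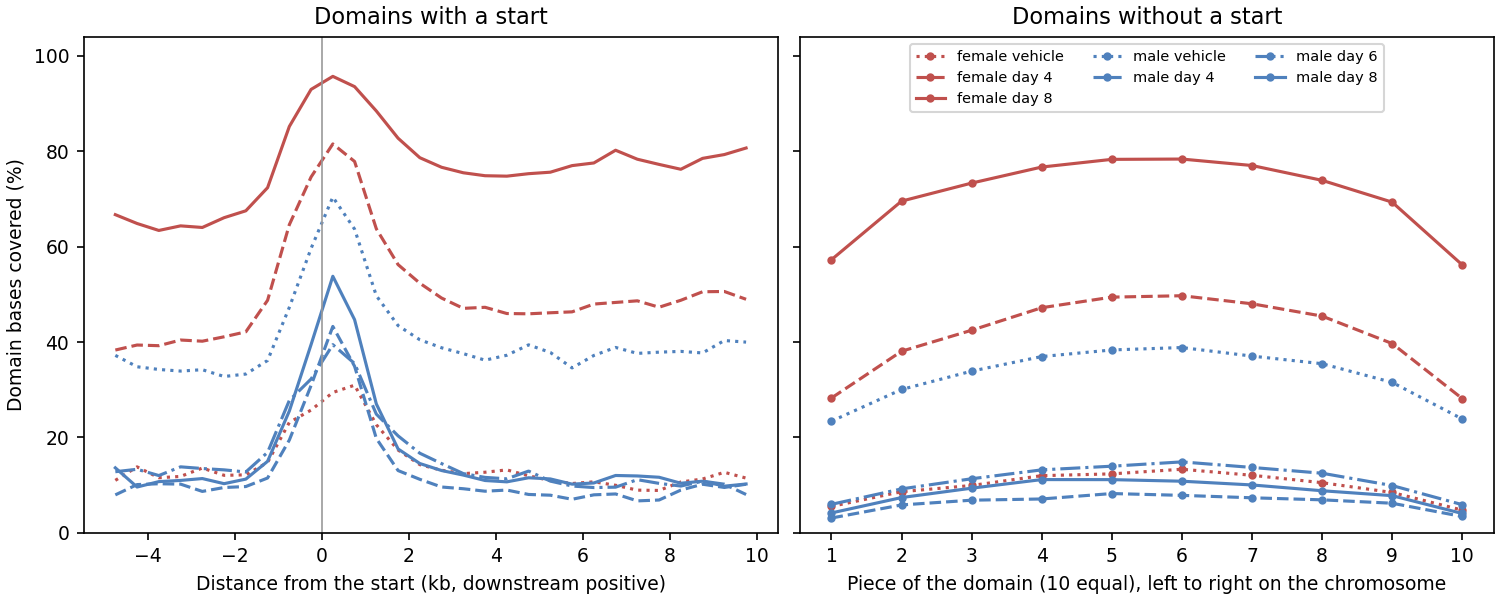
Percent of domain bases covered by each other list. Left, by distance from the start in domains with a start of 1 gene (bins of 0.5 kb), where 6 of 7 lists peak in the first 0.5 kb downstream; right, by piece (1 to 10, left to right on the chromosome) in domains without a start, where the outer pieces are lowest.

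Domains with a start were also found more widely. All 7 other lists touched 1442 domains (36.7%), beside 3.45% of all autosomal peaks of female day 6. The share was 57.4% (55.0% to 59.7%) of the domains with a start and 20.3% (18.6% to 22.0%) of those without, beside 27.1% and 0.818% of all autosomal peaks with and without a start. Length differs between the classes (median 7.90 kb with a start and 6.67 kb without), and its part in this was not tested. Fold over input in the female day 6 list moved with the same counts. Of the 985 domains of lowest fold (2.21 to 6.36), 15.6% held a start and 76.0% had 0 bp in female vehicle, and of the 982 of highest fold (12.13 to 67.46), 77.6% held a start and 6.82% had 0 bp.

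Of the 10 longest domains, the 9 described here all had the same order of lists at the top. The longest, 63.85 kb at chr4:139230402-139294252, lay over the bodies of Capzb (the beta subunit of the actin capping protein of the Z disc) and Slc66a1, 16.5 kb from the nearest start. Female day 8 covered 88.7% of it, female day 4 64.9%, male vehicle 50.7%, female vehicle 10.5% and the male treated lists 7.12% to 7.54%. The others included Myh9 (nonmuscle myosin heavy chain, 53.2 kb), the body of Ahdc1 (51.0 kb), Lyl1 with part of Nfix (a nuclear factor I protein of muscle development, 50.8 kb) and Dab2ip (49.5 kb). Tnnt3, the fast skeletal troponin T, lay wholly in a domain with the start of Lsp1 (47.0 kb, chr7:142470050-142517078), followed by Zmiz1 (47.0 kb), Asb2 (46.2 kb) and Tmem184b (44.9 kb).

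Female day 8 covered 88.7% (Capzb) to 98.6% (Tnnt3) of each, in at most 6 pieces. Female day 4 covered 44.3% to 72.4% and male vehicle 31.9% to 58.0%. In the other 4 lists no value exceeded 24.7% (Myh9, male day 6). None of these 9 was at least 50% covered by female vehicle or a treated male list.

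Another set, at least 50% covered by all 7 other lists, held 21 domains (0.534%, 0.349% to 0.815%), beside 0.334% of all autosomal peaks. The longest was the 17.4 kb domain over Mef2d (chr3:88136375-88153772), which encodes a MEF2 factor of muscle. Its cover was 74.8% in female vehicle, 99.0% in female day 4, 100% in female day 8, 95.9% in male vehicle, 73.7% in male day 4, 68.2% in male day 6 and 68.2% in male day 8. It held 136 tags per kb in the female day 6 list, against a median of 32.6.

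The second longest (15.55 kb, chr19:5838523-5854073) overlapped Frmd8 and the long noncoding RNA gene Neat1, a paraspeckle scaffold, and was covered by 56.0% (male day 8) to 95.2% (female day 8). Others were at Fosl2, Rhof, Zfp36l1, Hoxc10, Junb, the noncoding Lncpint and 2210408F21Rik genes (177 kb from the start of Mkln1) and Brd2 with H2-DMa. Fosl2 and Junb encode AP-1 subunits, Zfp36l1 an mRNA decay factor, Hoxc10 a hindlimb HOX protein and Brd2 a bromodomain protein that binds acetylated histones. These 9 were shorter (7.01 to 17.4 kb) than the 9 long domains above, with fold over input of 23.1 to 67.5 against 8.33 to 14.3.

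At the other end, 138 domains (3.51%) had 0 bp in either vehicle list, beside 67.6% of all autosomal peaks of female day 6. The 5 longest lay in Gtf3c1 (11.8 kb), in Eps8l1 and Ppp1r12c (9.62 kb), in Epas1 (a hypoxia-inducible factor, 9.33 kb), 4.72 kb from Ndst1 (8.73 kb) and 19.7 kb from Gm11544 (8.69 kb). Female day 8 covered 24.7% to 55.7% of these and female day 4 4.23% to 11.7%. Their fold over input was 3.96 to 6.11, all below the median of the domains. A single domain, 5.32 kb in Mrc2 (chr11:105345850-105351166, fold 5.35), had 0 bp in all 7 other lists, beside 44.3% of all autosomal peaks.

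**Figure D4:**
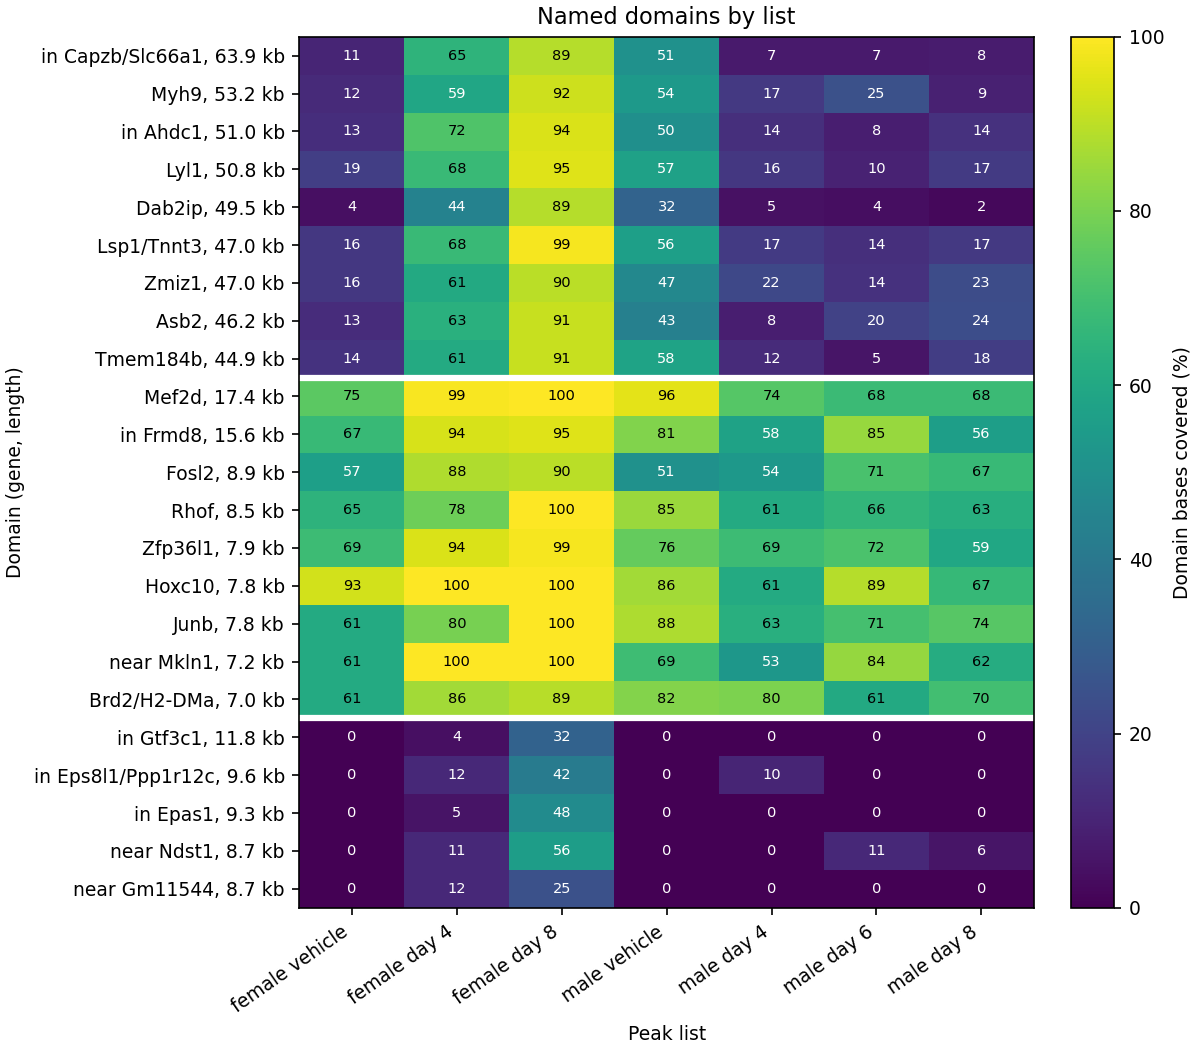
Percent of domain bases covered by each other list in 9 of the 10 longest domains (top), 9 of the 10 longest at least 50% covered by all 7 (middle) and the 5 longest with 0 bp in both vehicle lists (bottom). The top block is high in female day 8 and low in female vehicle and the treated male lists, and the middle block is above 50% throughout.

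Gene lists of muscle function were then counted. A start in a domain was found for 18 of 32 genes of excitation-contraction coupling and calcium (56.2%), 17 of 31 of glycolysis and glycogen (54.8%), 14 of 32 of the glucocorticoid response (43.8%) and 20 of 49 of the sarcomere (40.8%). The counts were 13 of 35 for membrane and costamere (37.1%), 14 of 39 for muscle transcription factors (35.9%), 12 of 42 for lipid uptake and oxidation (28.6%) and 10 of 36 for insulin, IGF1 and PI3K (27.8%). Over all genes the share was 10.1%. Ribosomal protein genes, which are active in every cell, had 8 of 80, although 78 of the 80 had a start in a peak of any length. The lists were chosen with results of these data known, and the shares are descriptions. With lists of equal length the shares were 3.19% of all genes, 10 of 49 sarcomere genes, 8 of 32 calcium genes, 6 of 31 glycolysis genes, 5 of 32 glucocorticoid genes, 4 of 35 membrane genes, 4 of 42 lipid genes and 3 of 39 muscle transcription factors. The insulin, IGF1 and PI3K list then had 1 of 36 (2.78%), below the share of all genes, and the ribosomal protein genes had 1 of 80.

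**Figure D5:**
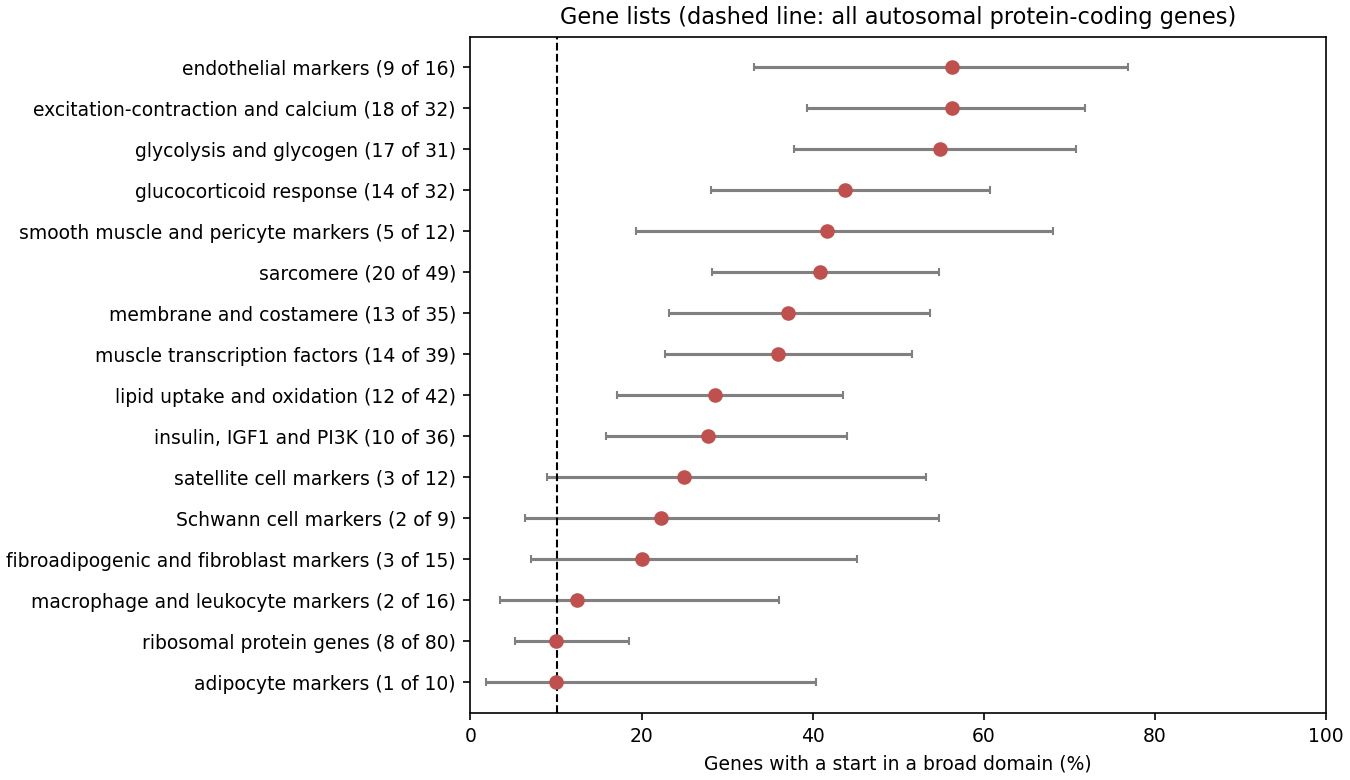
Percent of the genes of each list with a start in a broad domain (points) with Wilson 95% intervals (bars) and the share of all autosomal protein-coding genes, 10.1% (dashed line). Endothelial markers and both the calcium and glycolysis lists are above 50%, and ribosomal protein and adipocyte genes lie at the line.

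Among contractile genes, 8 lay wholly inside domains (Acta1, Tnnt3, Tnni2, Tnnc2, Mylpf, Tcap, Xirp1 and Mylk2), which encode skeletal actin, fast fiber troponins, a fast myosin light chain, a myosin light chain kinase and proteins of the Z disc or of fiber junctions. After Tnnt3 the longest were at Mylk2 (31.5 kb), Flnc (filamin C, 20.5 kb) and Xirp1 (18.7 kb). The 6.87 kb domain over Acta1 was covered by 55.0% in female vehicle, 98.4% in female day 4, 100% in female day 8, 81.1% in male vehicle, 0% in male day 4, 36.0% in male day 6 and 45.7% in male day 8. It was thus mostly covered in all 3 other female lists and in 1 of the 4 male lists.

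The sarcomere list had more genes with a start in a peak of 5000 bp or more in female day 4 (23 of 49) and female day 8 (27 of 49) than in female day 6, although those lists had fewer such peaks. Over all genes such starts numbered 600 of 20021 in female day 4, 1443 in female day 8 (7.21%) and 2025 in female day 6. In the order female day 4, day 8 and day 6, the glycolysis list had 20, 22 and 17 of 31 genes. The glucocorticoid list had 10, 18 and 14 of 32, and the calcium list 12, 19 and 18 of 32. The membrane list had 6, 14 and 13 of 35, and the lipid list 4, 13 and 12 of 42. Muscle transcription factors had 9, 14 and 14 of 39, and the insulin list 2, 6 and 10 of 36. Of all these lists, only sarcomere and glycolysis were higher in female day 4 than in female day 6. Of the sarcomere genes with such a peak, 6 in female day 4 and 7 in female day 8 had no start in a domain, and they were looked at after these counts were seen. Over the start of Myh4, the fast type IIB myosin heavy chain, the longest peak was 7.03 kb in female day 4 and 18.7 kb in female day 8, and no peak lay there in female day 6, either vehicle list, male day 4 or male day 8. Male day 6 had 3.50 kb. Myl1, a fast myosin light chain, had 0.625 kb in female day 6, beside 5.41 kb in female vehicle, 11.8 kb in female day 4 and 9.93 kb in male day 6. Myot, the Z disc protein myotilin, had 0.5 kb in female day 6 and 10.6 kb in female day 4, and Mylk4 0.634 kb and 5.88 kb. The other 4 of these genes had female day 6 peaks nearer the length limit, with 4.39 kb at Cryab, 4.18 kb at Nrap, 4.00 kb at Myoz1 and 3.20 kb at Myom1. Myl1 was also below the limit in female day 8, at 3.72 kb. The myosin heavy chain genes of the Myh4 cluster are close paralogs, and how reads that fit several places were treated is not given in the sources used here.

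Of the genes of the excitation-contraction and calcium list, 5 lay wholly inside domains. The longest were at Jsrp1 (a junctional sarcoplasmic reticulum protein, 24.6 kb), Pvalb (parvalbumin, a calcium buffer of fast fibers, 19.8 kb), Camk2a (19.3 kb) and Hrc (15.4 kb). Pvalb was covered by 96.9% in female day 8, 78.9% in female day 4, 47.8% in male vehicle and 5.06% to 21.6% in the other 4 lists. Ryr1, the calcium release channel, had a shorter domain over its start (5.30 kb), and Casq1, which stores calcium, one of 5.60 kb that was covered by at least 50% in 6 of the 7 lists, with 24.8% in male day 6.

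The domains over starts of genes of the glycolysis and glycogen list had a median length of 13.5 kb, beside 7.90 kb over all domains with a start. The list also holds Ckm, Ak1 and Slc2a4, which are not glycolytic enzymes. Hk2 (hexokinase II) had 29.99 kb, Pygm (muscle glycogen phosphorylase) 20.98 kb, Ckm (muscle creatine kinase) 18.5 kb and Aldoa (aldolase A) 18.3 kb. Aldoa, Gapdh, Pgam2, Eno3, Tpi1, Slc2a4, Ckm and Gpd1 lay wholly inside domains, and Slc2a4 encodes the insulin-responsive glucose transporter. The Aldoa domain was covered by 100% in both other treated female lists, 77.7% in male vehicle and 36.1% to 45.6% elsewhere.

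The muscle transcription factor list was led by Nfic (44.8 kb) and Nr4a1 (27.4 kb), followed by Smarcd3 (21.7 kb) and Nfix (19.4 kb). Myod1, the myogenic determination factor, lay in an 8.79 kb domain covered by 100% in female day 8, 75.9% in female day 4, 52.8% in male vehicle, 15.5% in female vehicle and 30.6% to 34.8% in the treated males.

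Known glucocorticoid-responsive genes were the next group. Per1 (a circadian repressor, 24.9 kb), Klf15 (18.1 kb), Klf9 (14.6 kb) and Cebpb (14.1 kb) had the longest domains. Per1, Dusp1, Cebpb, Cebpd, Ddit4, Arrdc2 and Gadd45b lay wholly inside domains, and the atrophy-linked ubiquitin ligase genes Trim63 and Fbxo32 had starts in domains of 13.7 and 5.74 kb. Cover of the Per1 domain was 33.5% in female vehicle, 56.9% in female day 4, 86.1% in female day 8, 44.8% in male vehicle, 39.0% in male day 4, 34.8% in male day 6 and 34.7% in male day 8. The vehicle lists thus also covered part of it. Klf9 and Bcl6 were covered by 51.3% and 78.7% in female vehicle.

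The median over the domains of the glucocorticoid list was 24.99% in female vehicle and 62.2% in male vehicle. Over all domains with a start it was 11.7% and 41.2%. Other muscle lists were also above these, with 26.9% and 54.1% for sarcomere, 26.6% and 49.3% for calcium and 22.1% and 56.6% for glycolysis. The insulin list had 3.01% and 41.2%. The higher vehicle values were thus not particular to the glucocorticoid list. Zbtb16, a further responsive gene, was overlapped by 8 domains of 5.32 to 33.3 kb, which together were covered by 95.3% in female day 8, 78.7% in female day 4, 58.5% in male vehicle, 43.1% in male day 6, 36.2% in female vehicle, 23.9% in male day 8 and 17.8% in male day 4. More domains lay over Gse1 (14, over a gene of 353 kb), Sh3pxd2a (12), Macrod1 (9) and Trak1 (9), and Fam53b and Mgll also had 8.

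In lipid metabolism the longest domains were over Pnpla2 (adipose triglyceride lipase, 24.7 kb), Lipe (hormone-sensitive lipase, 22.2 kb), Plin3 (a lipid droplet coat protein, 12.4 kb) and Lpin1 (lipin 1, 11.3 kb). Lpin1 was covered by 99.7% in female day 8, 56.3% in female day 4 and 56.2% in male vehicle, with 4.42% in female vehicle, 26.8% in male day 6 and 0% in male day 4 and day 8. In the insulin and IGF1 list they were at Akt2 (22.3 kb), Tsc2 (20.6 kb), Akt1 (20.3 kb) and Eif4ebp2 (8.31 kb). In the membrane list they were at Ehd1 (38.0 kb), Bin1 (24.5 kb), Anxa6 (22.8 kb) and Ank1 (14.1 kb), whose products shape T-tubules, repair the membrane or anchor it.

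The 10 genes that the study names for its ChIP assays were looked up. Akt1, a kinase of the insulin pathway, had a 20.3 kb domain over its start (chr12:112660566-112680871), covered by 0% in female vehicle, 28.5% in female day 4, 63.5% in female day 8, 27.5% in male vehicle, 6.94% in male day 4, 2.46% in male day 6 and 4.92% in male day 8. Slc27a1, a fatty acid transporter, had 6.23 kb over its start, covered by 8.02%, 52.6%, 84.0%, 51.4%, 18.0%, 0% and 34.9% in the same order. Domains of 9.001 kb in Tnnt1 (slow troponin T) and 5.73 kb in Cacna1h (a T-type calcium channel) did not include the start. No domain overlapped Cidea, Cidec, Esr1, Pik3c2a, Pik3ca or Tnnc1. Over all autosomal protein-coding genes, 15.7% were overlapped by a domain and 10.1% had a start in one, so most genes had none. The longest female day 6 peaks over a start were 1885 bp (Cidea), 1035 bp (Esr1), 2657 bp (Pik3c2a) and 2639 bp (Pik3ca), and no peak lay over a start of Cidec or Tnnc1.

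Markers of other cells of muscle tissue were counted in the same way, since the preparation was labelled as isolated myofibers. Endothelial markers had a start in a domain for 9 of 16 genes (56.2%, 33.2% to 76.9%) and smooth muscle and pericyte markers for 5 of 12 (41.7%, 19.3% to 68.0%, with Des, which muscle fibers also express). Counts were 3 of 12 for satellite cells, 3 of 15 for fibroadipogenic cells and fibroblasts, 2 of 16 for macrophages and leukocytes, 1 of 10 for adipocytes and 2 of 9 for Schwann cells. Starts in a peak of any length were found for 16 of 16 endothelial and 11 of 12 smooth muscle and pericyte markers, beside 39 of 49 sarcomere genes and 12774 of all 20021 genes (63.8%). Domains of genes typical of vessels were thus part of the set, and the share of nonmuscle nuclei was not tested.

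The longest endothelial domains were at Egfl7 (29.6 kb), Eng (20.8 kb), Cdh5 (VE-cadherin, 15.1 kb) and Sox18 (12.2 kb). Cdh5 was covered by 81.1% in female day 8, 43.9% in female day 4, 21.7% in male vehicle, 3.32% in female vehicle and 3.32% to 12.8% in the treated males. Pdgfrb (22.9 kb), Mcam (12.4 kb), Cspg4 (11.2 kb) and Tagln (7.66 kb) led the mural cell list. In female vehicle Mcam, Cspg4 and Tagln had 0%, Pdgfrb 2.19% and Des 35.3%. Among all domains with a start, 25.9% had 0 bp in that list. The few members of the other lists with a start in a domain were Sdc4, Hes1 and Itga7 (satellite cells, Itga7 also in the membrane list) and Gsn, Ly6a and Col1a1 (fibroadipogenic cells). They were Spi1 and Cd68 for macrophages, Plin4 for adipocytes and Pmp22 and Sox10 for Schwann cells. Most members of these lists had no start in a domain. A start in a peak of any length was found for 8 of 12 satellite cell and 12 of 15 fibroadipogenic and fibroblast markers. It was found for 9 of 16 macrophage and leukocyte, 4 of 10 adipocyte and 6 of 9 Schwann cell markers, beside 63.8% of all genes. Among the members without such a peak were Pax7, Lum, Col3a1, Ptprc, Adgre1, Csf1r, Adipoq and Plin1. These counts do not show which of these cells were present. The median cover in female day 8 was 84.1% for endothelial and 72.1% for mural domains, beside 97.6% for sarcomere domains and 81.1% over all domains with a start.

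A single domain stood apart in tags. The 6.55 kb domain at chr17:39842611-39849162 had 631 tags per kb but a fold over input of 2.70, and it overlapped Rn18s-rs5, a ribosomal RNA pseudogene, and the noncoding AY036118. It was covered by 98.8% in female day 8, 79.1% in male day 4 and 0% in female vehicle and male day 6.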

How the data were processed

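For each of the 8 groups the authors sequenced 2 H3K27ac ChIP libraries and 1 input library. Reads were aligned to mm10 with Bowtie2 2.2.6 and peaks were called against input with HOMER findPeaks in histone style at a fold of 2 or more. TopHat2 2.1.0 also stands in the submitters' processing notes. The way both ChIP libraries entered a single list is not given in the sources used here. The deposited lists hold, per peak, the coordinates, tags as a signal per 10 M tags, the findPeaks score and the fold (a ratio over input). The p-value column of the authors was not used. Depth was worked out from the steps of the deposited tag signal, of which 95.5% to 100% gave whole tags within 0.2.

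Members and gene lists were chosen with earlier results of these data known. Cover is the share of domain bases inside peaks of another list. It was checked against bedtools 2.31.1, and the scripts (pandas 2.3.3 and pysam 0.24.0 under Python 3.11.15, with scipy 1.17.1 for intervals and matplotlib 3.10.9 for plots) were tested on simulated data. Genes were 20021 autosomal protein-coding genes with curated transcripts (RefSeq, GRCm38.p6, the same assembly as mm10). Intervals are Wilson 95% intervals, which cover counting error only and treat domains as independent. No test across groups was made. MEF2 consensus matches, CAGCTG, ACANNNTGT and AAGGTCA were searched on both strands, and CAGCTG and ACANNNTGT read the same on both.

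Named were the 10 longest domains, the 10 longest at least 50% covered by all 7 other lists, the longest without cover in all other or in both vehicle lists, up to 4 genes per list with the longest domains over a start, the genes overlapped by most domains (with ties), the peaks at the length limit and the genes the study names for its ChIP. Of these, 2 domains are not reported here. Members of the lists named beyond these and the domain with the highest tags were chosen after their values were seen. Alternatives were other length limits, a stricter fold, lists of equal length, other covers, joined gaps, domains without repeat-rich ones and predicted transcripts.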

Additional observations from a re-analysis of the deposited data

Results flagged for a closer look

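The share of domain bases covered went in opposite directions from vehicle in the sexes. From vehicle to day 4 it was higher by 34.8 percentage points in the female lists, and the male difference was -27.4 percentage points. From vehicle to day 8 it was higher by 62.2 percentage points in females, and the male difference was -24.4 percentage points. The other peaks of the female day 6 list went the same ways, by 17.8 and 35.03 percentage points in females and -15.3 and -13.7 percentage points in males at day 4 and day 8, so the directions are not particular to the domains. With 1 list per group this difference between the sexes was not tested. The domains were chosen in a female treated list. In the order vehicle, day 4 and day 8, depth was 27.52, 48.97 and 39.71 M tags in females. In males it was 31.62, 7.52 and 32.08 M tags. In neither sex did depth come in the order of cover. Autosomal peaks numbered 37614, 66251 and 80538 in females and 87199, 17339 and 20355 in males. Tags in these peaks made up 7.74%, 11.7% and 25.6% of a list's tags in females. In males they made up 18.1%, 9.28% and 5.93%. The part of depth, number of peaks and tags in peaks in the difference was not tested. With lists of equal length, the share of domains at least 50% covered kept these directions. It was 2.98%, 21.2% and 36.1% in female vehicle, day 4 and day 8. In male vehicle, day 4 and day 8 it was 8.08%, 1.53% and 3.23%. With the full lists the male values were 25.1%, 1.22% and 2.90%, and the female values 3.13%, 42.8% and 83.3%. Differences from vehicle were thus smaller at equal length in both sexes, and depth was not held equal.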

How the results depend on the processing

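The number of domains was 5910 at a limit of 4000 bp, 964 at 10000 bp and 1176 with lists of equal length. The share at least 50% covered was, at 4000 bp, 40.4% (female day 4), 79.6% (female day 8) and 23.7% (male vehicle). At 10000 bp it was 1.87% (female vehicle), 53.6% (female day 4), 92.6% (female day 8), 32.0% (male vehicle), 0.519% (male day 4), 3.42% (male day 6) and 2.07% (male day 8). With a fold of at least 4 in every list it was 31.9% (female day 4), 13.2% (male vehicle), 2.39% (male day 6) and 1.71% (male day 8). With lists of equal length it was 21.2% (female day 4), 36.1% (female day 8), 8.08% (male vehicle), 6.04% (male day 6), 3.23% (male day 8), 2.98% (female vehicle) and 1.53% (male day 4). In the order female vehicle, day 4 and day 8 and male vehicle, day 4, day 6 and day 8, any overlap of 1 bp gave 61.2%, 95.04%, 99.8%, 96.1%, 59.8%, 60.3% and 62.6%. A cover of 80% gave 0.280%, 11.6%, 44.6%, 1.91%, 0.0763%, 0.585% and 0.203%. Joining gaps of 1000 bp or less gave 4.86%, 48.4%, 86.3%, 34.1%, 2.19%, 7.07% and 4.02%. The share in all 7 lists was 0.207% at 10000 bp, 0.311% at a fold of 4, 0.170% with lists of equal length, 36.7% at 1 bp and 0% at 80%. The share with a start was 39.7% at 4000 bp, 59.2% at 10000 bp, 46.3% with lists of equal length and 49.6% with predicted transcripts added. Fewer or more peaks or bases count under these settings by construction, and beyond that the cause was not tested. Leaving out a replicate was not possible because each list combines its 2 libraries. No paired analysis was possible because each group has 1 list and no result comes from a test. Cover shows where a list has a called peak, so a stretch without cover can hold mark below the caller's limit, and the list of male day 4 rests on 7.52 M tags.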
